A study of Mus musculus with 3 samples.

Results

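Chemokines are small secreted proteins that steer leukocytes through G protein-coupled receptors. Activated T cells are themselves a source of several of them, and in a rejecting heart graft they recruit further T cells and myeloid cells. The 5 chemokine genes described here are Ccl3 and Ccl4, which encode related attractants of monocytes and T cells, Ccl5, whose product attracts T cells, monocytes and eosinophils, Ccl1, which encodes a ligand of Ccr8, and Xcl1, whose product binds Xcr1 on cross-presenting dendritic cells. They were chosen by name out of the 28692 genes listed in both wild-type matrices.

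The cells were TEa cells, CD4 T cells whose transgenic receptor recognises a peptide of the BALB/c I-E alpha chain. Naive, congenically marked TEa cells had been transferred into C57BL/6 mice that then received BALB/c hearts, and the cells were sorted 7 days after transplantation. One library held wild-type (WT) TEa cells from the heart allograft and another held WT TEa cells from the recipients' spleens. A further library, Ldha-/- TEa cells from the spleen, was not used here because its rows were not paired with gene names. Each tissue was thus represented by 1 library, so that tissue, recipient and library cannot be told apart, no test between the tissues was possible, and intervals below are exact 95% Poisson (levels) or Clopper-Pearson (shares) intervals that cover counting error only. How many mice stood behind each library is not stated in the labels.

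Droplet-based 3' RNA sequencing counted unique molecular identifiers (UMIs), one for each captured transcript. Barcodes that reached 1000 UMIs and 500 genes, with mitochondrial transcripts at 10% or below, numbered 4074 in the heart library and 6583 in the spleen library. Those with more than 1 UMI of Lyz2, a myeloid gene, were left out, 77 from the heart and 5 from the spleen, which left 3997 heart cells with 42401177 UMIs and 6578 spleen cells with 56328025 UMIs. The median depth was 8237 UMIs per heart cell and 7989 per spleen cell, and 6 barcodes occurred in both libraries. Cd3d, Cd3e or Cd3g had a UMI in all but 7 heart and 16 spleen cells, and Cd4 stood at 144 CPM (a gene's UMIs scaled to 1000000 in each library) in the heart and 208 CPM in the spleen.

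Ccl3, Ccl4, Ccl5 and Ccl1 lie on chromosome 11 of GRCm38 (mm10) and Xcl1 on chromosome 1. In the GENCODE M21 annotation Ccl5 spans positions 83525778 to 83530518 on the minus strand, Ccl3 spans 83647844 to 83649355 on the minus strand, and Ccl4 spans 83662584 to 83664683 on the plus strand. Ccl1 spans 82176657 to 82305690 on the minus strand, and Xcl1 spans 164931644 to 164935527 on the minus strand of chromosome 1. The Ccl1 span, 129034 bases, reaches far upstream of the RefSeq start used below, so the Ccl1 stretch printed there lies inside it. The RefSeq promoter table (GRCm38.p6) held 3 of the 5 genes. Their last 150 bases before the RefSeq start are shown because Ccl1 and Xcl1 were found together in heart cells more often than their shares predict (below), whereas Ccl3 went with Ccl4. The pairing of Ccl1 with Xcl1 rests on 3 cells after thinning, and shared regulation was not tested. Capitals mark matches to TATAA or ATAAAA on the gene's strand, letters of the box at which transcription is positioned, and to GGAAA on either strand (TTTCC when read on the opposite one), the core bound by NFAT factors.
Xcl1, chr1:164935523-164935672, minus strand: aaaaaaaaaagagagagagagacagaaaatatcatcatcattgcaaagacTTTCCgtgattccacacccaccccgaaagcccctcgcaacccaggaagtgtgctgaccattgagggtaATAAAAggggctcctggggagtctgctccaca
Ccl1, chr11:82179813-82179962, minus strand: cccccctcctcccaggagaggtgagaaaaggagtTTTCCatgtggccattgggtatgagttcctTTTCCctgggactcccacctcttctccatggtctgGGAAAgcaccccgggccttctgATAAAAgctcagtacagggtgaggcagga
Ccl3, chr11:83649379-83649528, minus strand: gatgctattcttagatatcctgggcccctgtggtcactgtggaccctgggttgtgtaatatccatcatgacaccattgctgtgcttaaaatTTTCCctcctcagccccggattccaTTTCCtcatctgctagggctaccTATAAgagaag
ATAAAA stood 32 bases before the start of Xcl1 and 29 bases before that of Ccl1, counted to its first base, and occurred in 6.03% of the 32851 promoters of the table over the same 150 bases. Ccl3 carried TATAA 11 bases before its RefSeq start, counted the same way, and 9.99% of promoters held that motif. The printed Ccl3 stretch ends at position 83649379, upstream of the GENCODE start of Ccl3 at 83649355. The distance of its TATAA thus depends on the start used. GGAAA occurred 3 times in Ccl1, 2 times in Ccl3 and 1 time in Xcl1, and was present in 37.6% of promoters. Neither TGANTCA, the AP-1 motif, nor the NF-kB consensus matched in these windows on either strand; they occurred in 4.24% and 4.60% of promoters. A match describes the letters only.

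All 5 chemokines had a higher level in the heart library than in the spleen library, but by very different factors. Ccl5 was by far the most abundant in both, Ccl4 and Xcl1 differed most among those found in both, and Ccl1 was counted in heart cells only. For Ccl3 the direction was not stable: its log2 ratio of 0.67 was 0.16 under stricter cell limits, 0.12 for the mean of per-cell CPM and -0.088 without cells holding an Hspa1a or Hspa1b UMI. Because UMIs are counted once per transcript at its 3' end, levels in CPM were not divided by gene length.

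Ccl5 had 22376 UMIs in the heart and 18937 UMIs in the spleen, that is 527.7 CPM (520.8 to 534.7) against 336.2 CPM (331.4 to 341.0), a log2 ratio of 0.65 with 1 CPM added to both. Ccl4 had 43.8 CPM (41.8 to 45.9) in the heart and 5.50 CPM (4.91 to 6.15) in the spleen, a 7.96-fold difference. Xcl1 had 19.9 CPM (18.6 to 21.3) in the heart and 0.46 CPM (0.30 to 0.68) in the spleen, which is 43.1-fold. The Xcl1 ratio has a counting interval of 29.2 to 66.4, since the spleen figure rests on 26 UMIs in 9 cells.

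Ccl3 differed least after Ccl5, at 6.58 CPM (5.83 to 7.40) in the heart against 3.76 CPM (3.27 to 4.31) in the spleen, a log2 ratio of 0.67. Ccl1 had 189 UMIs, 4.46 CPM (3.84 to 5.14), in the heart and no UMI in the spleen. Set against the 3 counts that a count of 0 allows over the spleen library, 0.0533 CPM, Ccl1 was 83.7-fold higher in the heart. That fold takes the heart level as counted and is not a lower limit. The richest cell held 27.0% of the heart's Ccl1 UMIs, and without it the heart level was 3.26 CPM. Within the heart library the order was Ccl5, Ccl4, Xcl1, Ccl3 and Ccl1, and within the spleen library Ccl5, Ccl4, Ccl3, Xcl1 and Ccl1, with no neighbours whose counting intervals overlapped.

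Of the 5, Ccl4, Ccl5 and Xcl1 reached 10 CPM in either library, the level needed for a gene to enter the comparison across all genes. Ccl4 and Xcl1 were at least 2-fold higher in the heart, as were 9.16% of the 6963 genes compared, while 8.5% were at least 2-fold lower. The median log2 ratio over those genes was -0.11. Of all calls, 51.9% were higher in the heart; with totals that leave out mitochondrial, ribosomal protein and Malat1 counts this share was 33.7%, the median of all genes moved by -0.17, and Ccl4 and Xcl1 still lay past 2-fold.

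**Figure D1:**
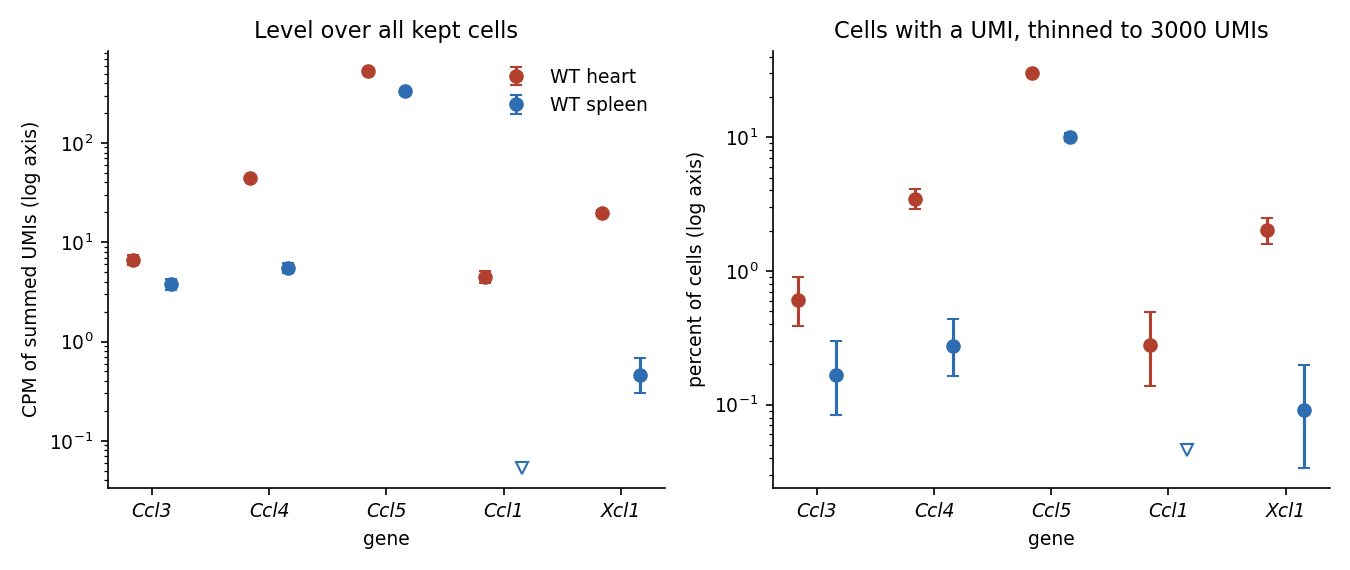
Level of each chemokine (left, CPM of summed UMIs, log axis, exact 95% Poisson intervals) and percent of cells with a UMI after thinning each cell to 3000 UMIs (right, log axis, Clopper-Pearson intervals), WT heart left of WT spleen for each gene. Open triangles mark the limit that a count of 0 allows for Ccl1 in the spleen; the smallest gap in level is that of Ccl5, 527.7 CPM in the heart and 336.2 CPM in the spleen.

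The share of cells with a UMI differed more than the level for Ccl3, Ccl4 and Ccl5. With every cell thinned to 3000 UMIs, which leaves out 35 shallower cells in each library, Ccl5 was found in 30.04% (28.6 to 31.5) of 3962 heart cells and in 10.0% (9.29 to 10.8) of 6543 spleen cells. Ccl4 was found in 3.46% of heart cells and 0.275% of spleen cells. Xcl1 was found in 2.02% of heart cells and 0.0917% of spleen cells (6 cells).

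Ccl3 was rarer still, with a UMI in 0.606% of heart cells and 0.168% of spleen cells. Ccl1 was found in 0.278% of heart cells and in 0 of 6543 spleen cells, which allows a share of up to 0.0459%. Without thinning the heart shares were 42.7% for Ccl5, 6.10% for Ccl4, 4.08% for Xcl1, 1.43% for Ccl3 and 1.001% for Ccl1. The unthinned spleen shares were 14.5% for Ccl5, 0.410% for Ccl4, 0.137% for Xcl1 and 0.274% for Ccl3.

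Ccl5 was thus spread over more cells in the heart and packed into fewer, richer cells in the spleen. Heart cells with Ccl5 held it at 1166 CPM and spleen cells with Ccl5 at 2123 CPM, a ratio of 0.549. A total of 143 heart cells held 50% of the heart's Ccl5 UMIs, against 38 spleen cells for the spleen's. The richest 1% of cells held 23.3% of Ccl5 UMIs in the heart (40 cells) and 62.8% in the spleen (66 cells). One spleen cell alone had 1270 Ccl5 UMIs, 18.4% of all its UMIs, where the highest heart cell had 267. Leaving out the richest 1% of cells in each library gave 409.6 CPM in the heart against 126.2 CPM in the spleen, a log2 ratio of 1.69.

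The other chemokines sat in a handful of cells. In the heart, 2 cells held 50% of the Ccl4 UMIs, 4 cells those of Ccl3, 2 cells those of Ccl1 and 9 cells those of Xcl1. In the spleen, 2 cells sufficed for each of Ccl3, Ccl4 and Xcl1. The Poisson intervals treat UMIs as independent and are therefore too narrow for these genes.

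A single heart cell carried 763 of the 1858 heart Ccl4 UMIs, or 41.1%, together with 54 Ccl3, 109 Xcl1 and 220 Ccl5 UMIs; it also had 16 CD8 UMIs and 1 Cd4 UMI. Without the richest cell for Ccl4 in each library its level was 25.8 CPM in the heart and 3.14 CPM in the spleen, a log2 ratio of 2.70 against 2.78 with it. For Ccl3 the same step gave 5.31 CPM in the heart and 1.97 CPM in the spleen, a log2 ratio of 1.09, because 101 of the 212 spleen UMIs came from 1 cell. This alternative was chosen after seeing the data.

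**Figure D2:**
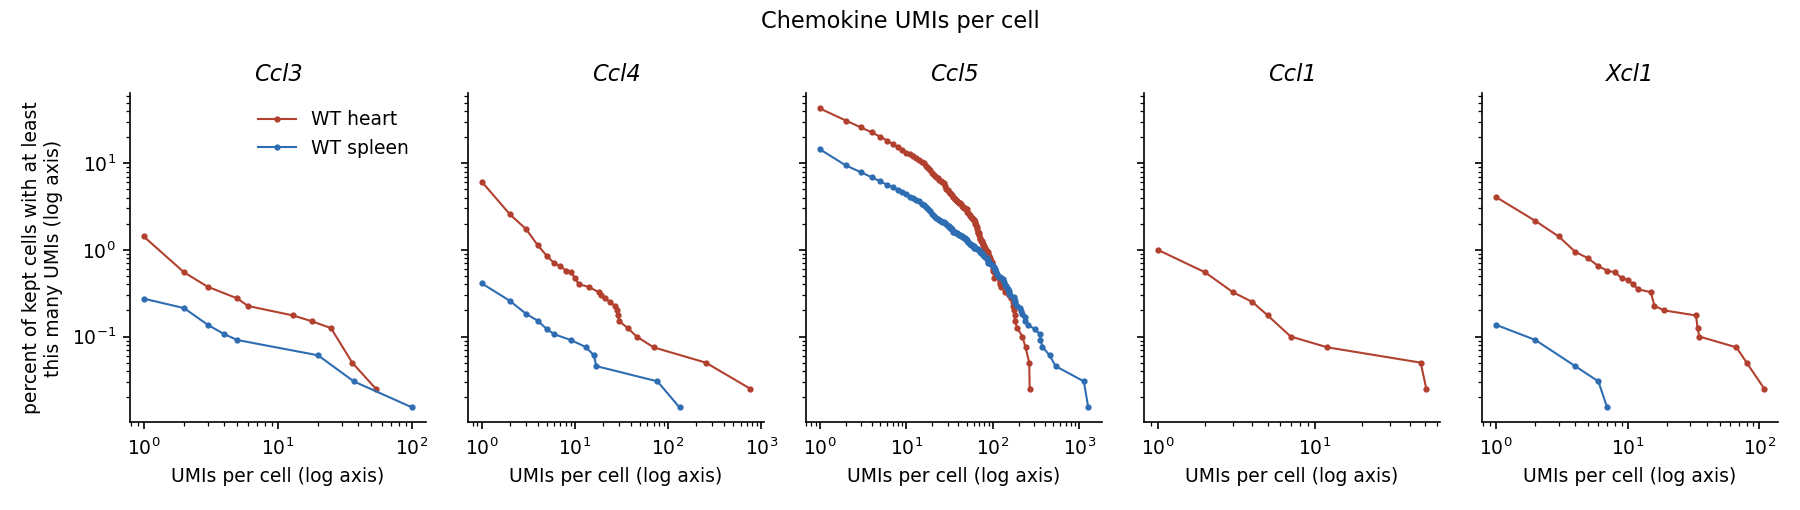
Percent of kept cells (log axis) with at least a given number of UMIs (log axis) of each chemokine, WT heart in red and WT spleen in blue. The Ccl5 curves cross: more heart cells hold a few UMIs, but the highest cell has 267 UMIs in the heart and 1270 in the spleen; Ccl1 has no spleen curve.

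The cells carrying these UMIs were next set out by lineage markers, since the sort was for CD4 T cells. Cells with a Cd3 UMI and none of the CD8, NK, B, macrophage, dendritic or neutrophil markers (Cd3-only cells) numbered 3473 in the heart and 5968 in the spleen; these classes were set after seeing the data. CD8 markers, Cd8a and Cd8b1, had 723 UMIs in 248 heart cells and 301 UMIs in 261 spleen cells. The NK list had 143 UMIs in 36 heart cells and 513 UMIs in 199 spleen cells, Tyrobp leading it in the heart and Klrb1c in the spleen. Of the 5 NK markers, 2 were at 0 in the heart and none in the spleen. The macrophage list had 283 UMIs in 154 heart cells and 128 UMIs in 67 spleen cells, with none of its 7 genes at 0.

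Cd3-only cells held 81.3% of Ccl5 UMIs in the heart and 71.6% in the spleen, and 83.1% of the Ccl1 UMIs in the heart, close to their 86.9% share of heart cells. They held much less of the rest: 42.1% of Ccl4 in the heart and 39.0% in the spleen, and 43.7% of Ccl3 in the heart and 44.3% in the spleen. Heart cells with Cd3 and a CD8 UMI held 47.6% of Ccl4, 35.5% of Ccl3 and 37.3% of Xcl1 UMIs. The single cell with 763 Ccl4 UMIs held most of the 885 Ccl4 UMIs of that class. It also held 54 of the class's 99 Ccl3 UMIs and 109 of its 315 Xcl1 UMIs. In the spleen 1 cell held 101 of the 212 Ccl3 UMIs and 133 of the 310 Ccl4 UMIs. That cell had 25 Cd3 UMIs but also 1 macrophage-list UMI, and so was not classed as Cd3-only. The low Cd3-only shares of Ccl3 and Ccl4 thus turn largely on single cells.

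Xcl1 in the spleen rested on 9 cells. Of its 26 UMIs, 17 were in 3 cells with Cd3 and an NK UMI, 6 in 4 cells without Cd3, which had 36 to 69 NK-list UMIs, and 1 in a Cd3-only cell. The 3 cells with Cd3 had 36, 48 and 46 Cd3 UMIs and 4, 1 and 1 NK-list UMIs, so that 10 of the 26 UMIs are classed by a single NK UMI per cell. In the heart, by contrast, 464 of 844 Xcl1 UMIs lay in 121 Cd3-only cells, giving 13.3 CPM against 0.020 CPM in the spleen's Cd3-only cells. The spleen figure is below the 3-count limit.

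Within Cd3-only cells the remaining levels were 520.3 CPM in the heart against 269.0 CPM in the spleen for Ccl5, 22.4 against 2.40 CPM for Ccl4, 3.49 against 1.86 CPM for Ccl3 and 4.49 against 0 CPM for Ccl1. Each log2 ratio was positive there, from 0.65 for Ccl3 to 3.81 for Xcl1. A pair of heart cells without any Cd3 UMI had 25 Ccl3 UMIs each, and 46 and 70 Ccl4 UMIs. They held 17.9% of the heart's Ccl3. Their 14 and 11 NK-list UMIs were all of Tyrobp, which myeloid cells use too, and they had 46 and 56 UMIs of the neutrophil list.

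**Figure D3:**
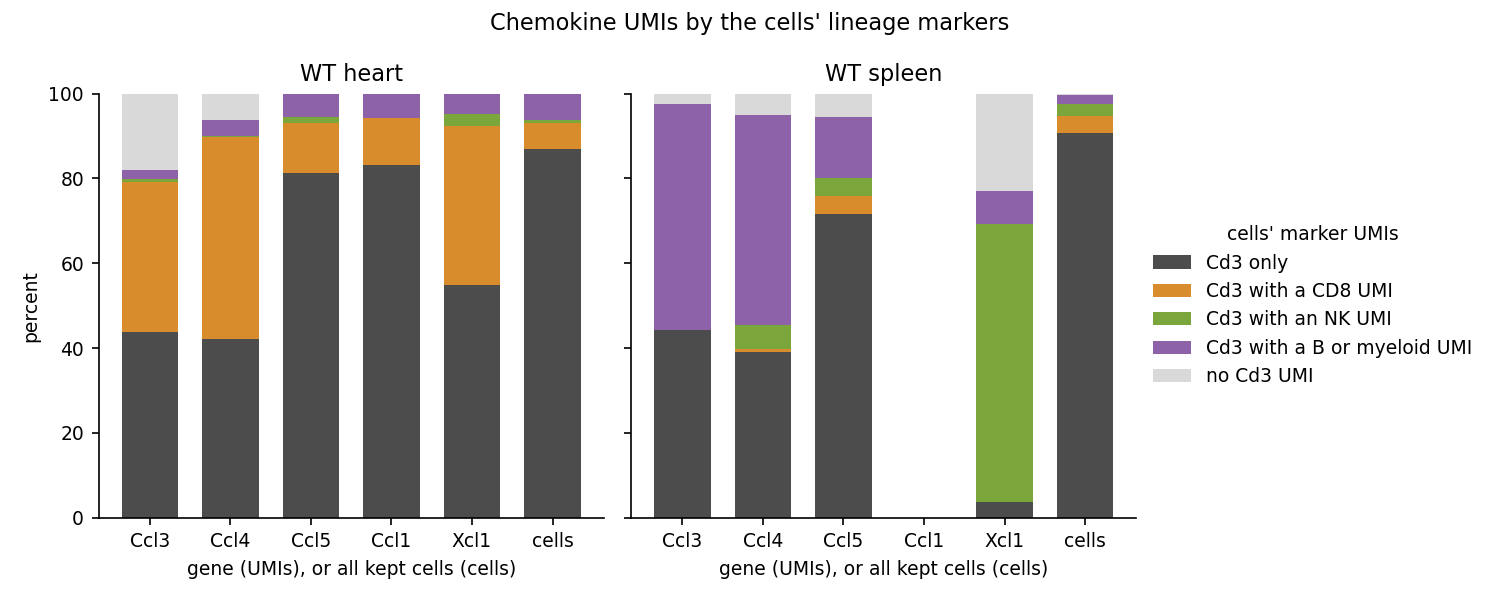
Stacked percent of each chemokine's UMIs, and of all kept cells (last bar), by the lineage markers that the cells carried, WT heart left and WT spleen right. Cd3-only cells are 86.9% of heart cells but hold 42.1% of heart Ccl4 UMIs, where 1 cell with CD8 UMIs holds 41.1%. In the spleen 17 of the 26 Xcl1 UMIs lie in 3 cells with Cd3 and an NK UMI, and Ccl1 had no UMI.

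The barcodes left out for Lyz2 were rich in Ccl3 and Ccl4. The 77 heart barcodes, at a median of 26551 UMIs, had 89.8 CPM of Ccl3 and 367.7 CPM of Ccl4, against 6.58 and 43.8 CPM in the kept heart cells. Ccl5 stood at 688.6 CPM, Ccl1 at 2.95 CPM and Xcl1 at 9.70 CPM in them. At the limit itself, the 44 kept heart cells with exactly 1 Lyz2 UMI had 2.67 CPM of Ccl3 and 41.4 CPM of Ccl4, and 3 left-out barcodes with exactly 2 had no UMI of either.

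RNA free in the suspension was gauged from barcodes with 1 to 100 UMIs. Ccl5 was at 602.0 CPM there in the heart and at 312.1 CPM in the spleen, and Ccl4 at 47.3 and 5.62 CPM. Hbb-bs, a red cell gene that T cells lack, was at 35.5 CPM in those heart barcodes and 607.3 CPM in those spleen barcodes, but had no UMI in the kept heart cells. Of the kept spleen cells, 121 had exactly 1 Hbb-bs UMI and 9 had 2 to 6544, which brought its level over all kept spleen cells to 175.4 CPM. Scaled by Hbb-bs, with the 3 counts that a count of 0 allows in the heart cells and with those 9 spleen cells left out, free RNA came to 0.199% of a heart cell's UMIs and 0.355% of a spleen cell's, which for Ccl5 is 1.20 CPM in the heart and 1.11 CPM in the spleen. With the 9 cells kept in, an alternative chosen after seeing the data, the spleen figures were 28.9% and 90.2 CPM, so the estimate for the spleen rests on leaving them out.

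Cells were then clustered within each library without using any chemokine ligand gene, and the chemokines were read across the clusters. In the spleen, most Ccl3, Ccl4 and Ccl5 UMIs fell in cluster 4, 900 cells led by S100a4, Ccr2, Ly6c2, Cxcr6, Nkg7 and Gzmb and called Th1-like from Cxcr6, Nkg7 and Gzmb. It held 83.2% of spleen Ccl5 UMIs at 2027 CPM, 95.8% of Ccl3 and 91.0% of Ccl4. Ccl5 was found in 53.1% of its cells without thinning. Xcl1 was split, with 13 of its UMIs there and 10 in 2 cells of the Tfh-like cluster 5. At a clustering resolution of 1 a pair of clusters held most of these UMIs. One of 531 cells, led by Gzma, Ly6c2, Tyrobp, Nkg7 and Fcer1g with 14.1 CPM of Gzmb, held 81.1% of Ccl3, 86.1% of Ccl4 and 43.9% of Ccl5 UMIs. The other, 623 cells led by S100a4, Ccr2, Lgals3, Cxcr6 and Gzmb, held 14.6% of Ccl3, 5.16% of Ccl4 and 42.3% of Ccl5 UMIs. The cycling-like cluster 8 (184 cells) had 470.3 CPM of Ccl5, and the other 9 spleen clusters had between 0 and 72.1 CPM, the Tfh-like cluster 5 among them with 44.0 CPM. No Ccl5 UMI was found in the 38 cells of cluster 9, led by Igfbp4 and Ly6c1 at a median depth of 6121 UMIs. None was found either in the 7 cells of cluster 10, led by the plasma and B cell genes Jchain and Cd79a at 8713 UMIs. These counts of 0 allow up to 15.5 and 52.4 CPM, so they do not measure the background.

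In the heart, Ccl5 was not held to such a cluster. It ranged from 184.8 to 881.1 CPM over the 7 largest clusters and reached 823.8 CPM in cluster 1, called naive or stem-like from Ccr7, Klf2, Tcf7 and S1pr1. That name does not cover all of its cells, since cluster 1 also had 178.3 CPM of Gzmb. The finer resolution had a cluster of 465 cells led by Klf2 and S1pr1, with 1363 CPM of Ccl5, and one of 378 cells led by Ccr7 with Tcf7 among its leading genes, with 104.9 CPM, the lowest level in the heart there. The 465 cells had Lgals3 and Gzma among their leading genes and 384.2 CPM of Gzmb, against 5.96 CPM of Gzmb in the 378 cells. The cycling-like cluster 3 and cluster 4, led by Mcm genes, had 198.1 and 184.8 CPM but also the deepest of these cells, with medians of 20036 and 16500 UMIs. The share of cells with a Ccl5 UMI, unthinned, was 46.0% in cluster 3 and 39.7% in cluster 1.

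Ccl3 and Ccl4 followed another pattern in the heart. Cluster 2, 505 cells led by Il1b, Hspa1b, Hspa1a, Ifng and Nr4a1 and given no name, had 32.7 CPM of Ccl3 and 113.2 CPM of Ccl4, where the naive or stem-like cluster 1 had 0.39 and 4.40 CPM. It held 42.3% of the heart's Ccl3 UMIs. At the finer resolution the 476 cells led by Hspa1b, Hspa1a, Ifng and Nr4a1 had 18.3 CPM of Ccl3 (22.2% of its UMIs) and 81.1 CPM of Ccl4. A cluster of 45 cells led by Cd74 and Il1b, of which 11.1% had no Cd3 UMI, had 95.4 CPM of Ccl3 (18.6%) and 247.6 CPM of Ccl4. These were 52 Ccl3 UMIs in 3 cells and 135 Ccl4 UMIs in 6 cells. Cluster 7, also led by Cd74, had 2 and 19 UMIs. The 2 cells without Cd3 described above held 50 Ccl3 and 116 Ccl4 UMIs. Most of the level in these 45 cells, and part of that in cluster 2, may thus come from those 2 cells. Hspa1a and Hspa1b encode inducible heat shock proteins. Both led cluster 2 together with immediate early genes such as Fosb, Egr1 and Fos, and their part in the chemokine levels was not tested. With all cells left out that had a UMI of either heat shock gene, Ccl3 was at 3.50 CPM in the heart and 3.78 CPM in the spleen, so the direction turned to a log2 ratio of -0.088, and Ccl4 was at 21.0 CPM in the heart and 5.53 CPM in the spleen.

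Xcl1 was highest, outside the small clusters 7 and 8, in the cycling-like cluster 3 at 40.6 CPM and in cluster 4 at 31.6 CPM, and lowest in cluster 1 at 4.14 CPM. Ccl1 ran from 0 in the 921 cells of cluster 1 to 8.56 CPM in cluster 4 among the 7 largest. This order changed at the finer resolution. There the cluster led by Ung and Mcm genes had 19.8 CPM of Xcl1 and 0.81 CPM of Ccl1. A cluster of 307 cells led by Lgals7 and Ifitm2 had 36.7 CPM of Xcl1 and 39.7 CPM of Ccl1, 69.3% of the Ccl1 UMIs. Single cells set much of this order. The Ccl1 level was 52 UMIs in 6 cells of cluster 4, and 131 UMIs in 16 of the 307 cells. The 2 richest Ccl1 cells of the heart had 51 and 47 UMIs, the second with 67 of Xcl1. Cluster 8, 12 heart cells led by Cd8a and Cd8b1, had the highest level of every one of the 5 genes, with 2874 CPM of Ccl5, 155.1 CPM of Ccl4, 147.0 CPM of Xcl1 and 118.4 CPM of Ccl3. Its Ccl1 level, 16.3 CPM, was 4 UMIs in 1 cell. The same 12 cells stayed below the finer clusters of 307 cells for Ccl1 and of 45 cells for Ccl4. Cluster 7, 43 heart cells led by Cd74 and MHC class II genes, was left unnamed and had 1464 CPM of Ccl5.

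**Figure D4:**
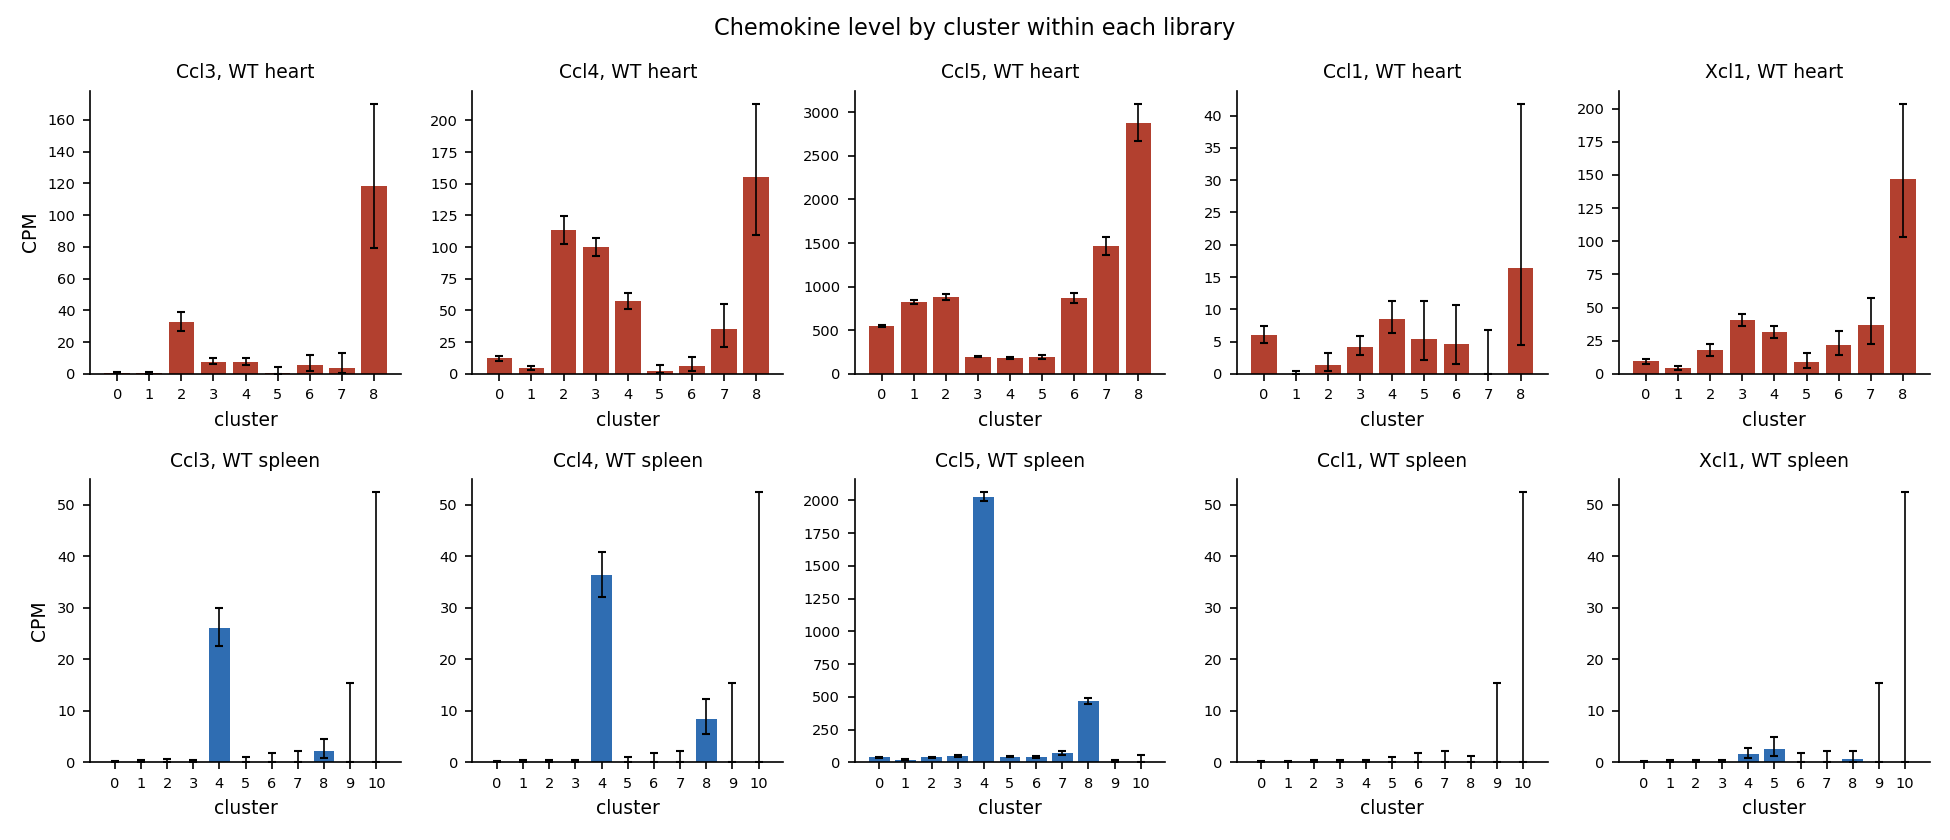
CPM of each chemokine by cluster, WT heart in the upper row and WT spleen in the lower, each panel on its own axis from 0 with exact 95% Poisson intervals. Spleen cluster 4 stands alone for Ccl5 at 2027 CPM, and heart Ccl5 is spread over clusters. The 12 CD8-led cells of heart cluster 8 are highest for all 5 genes at this resolution. At a resolution of 1 other clusters are highest for Ccl1 (39.7 CPM, 131 UMIs in 16 cells) and Ccl4 (247.6 CPM, 135 UMIs in 6 cells).

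Splitting cells by a UMI of a state gene, after thinning to 3000 UMIs, gave folds that differed by chemokine and by state gene. Nr4a1, an immediate target of T cell receptor signalling, marked Ccl3 and Ccl4 in the heart. The 542 heart cells with Nr4a1 had 44.9 CPM of Ccl3 against 2.44 CPM in the 3420 without, an 18.4-fold difference (11.6 to 30.3), and 137.1 against 23.8 CPM of Ccl4. Ccl3 was found in only 2.21% of cells with Nr4a1 and 0.351% of those without, so its fold rests on few cells. The interval covers the counting of UMIs only. All thinned cells entered the split, those without a Cd3 UMI among them. The 2 heart cells without Cd3 described above had 25 Ccl3 UMIs each at depths of 3969 and 3267 UMIs, so thinning removed few. The split counted 73 thinned Ccl3 UMIs with Nr4a1 and 25 without. On which side those 2 cells fell was not examined, so the Ccl3 and Ccl4 folds cannot be read as those of T cells alone. Ccl5 differed by 1.14-fold in this split. In the spleen the 217 cells with Nr4a1 had 89.1 CPM of Ccl5, against 401.6 CPM in the 6326 without. They had no UMI of Ccl3 or Ccl4. Only 11 of all 6543 thinned spleen cells held Ccl3 and 18 held Ccl4, too few to show an absence.

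In the heart all 5 had a higher level in cells with Ifng, the Th1 cytokine gene. Cells with Ifng had 107.1 CPM of Ccl4 against 27.6 CPM in those without, 25.2 against 5.33 CPM of Ccl3, 33.8 against 9.76 CPM of Xcl1, 8.59 against 1.77 CPM of Ccl1 and 1043 against 625.1 CPM of Ccl5. Few cells carry some of these levels. Ccl3 was found in 2.23% of heart cells with Ifng and 0.325% without, and Ccl1 in 1.03% and 0.148%. The 2 heart cells without Cd3 that had 25 Ccl3 UMIs each had no Ifng UMI. They thus counted among the cells without Ifng, which held 54 thinned Ccl3 UMIs in all. The share of cells with a Ccl5 UMI was 28.9% with Ifng and 30.2% without, so that the share of cells was not higher with Ifng. In the spleen the 208 cells with Ifng had 2796 CPM of Ccl5, against 312.2 CPM in the other 6335. Their Ccl3 and Ccl4 levels, 160.3 and 197.1 CPM against 0.895 and 1.21 CPM in the others, rest on few cells, since 2.88% of the cells with Ifng held Ccl3 and 3.37% held Ccl4.

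Gzmb, encoding granzyme B, divided Ccl5 in both libraries. Heart cells with Gzmb had 1285 CPM of Ccl5 against 510.2 CPM in those without, a fold of 2.52, and spleen cells with Gzmb had 4217 CPM against 222.7 CPM, a fold of 18.9. In the heart split Ccl4 had a fold of 2.35 (1.94 to 2.83), and Ccl3 and Xcl1 had folds of 0.98 and 0.97. Tcf7, the gene of the stem-like T cell factor, marked low Ccl4: 5.71 CPM in heart cells with Tcf7 against 46.5 CPM in those without. For Ccl5 the Tcf7 split was 599.6 against 705.2 CPM in the heart and 141.7 against 919.0 CPM in the spleen, folds of 0.850 and 0.154. Whether folds differ between the tissues was not tested, with 1 library each.

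**Figure D5:**
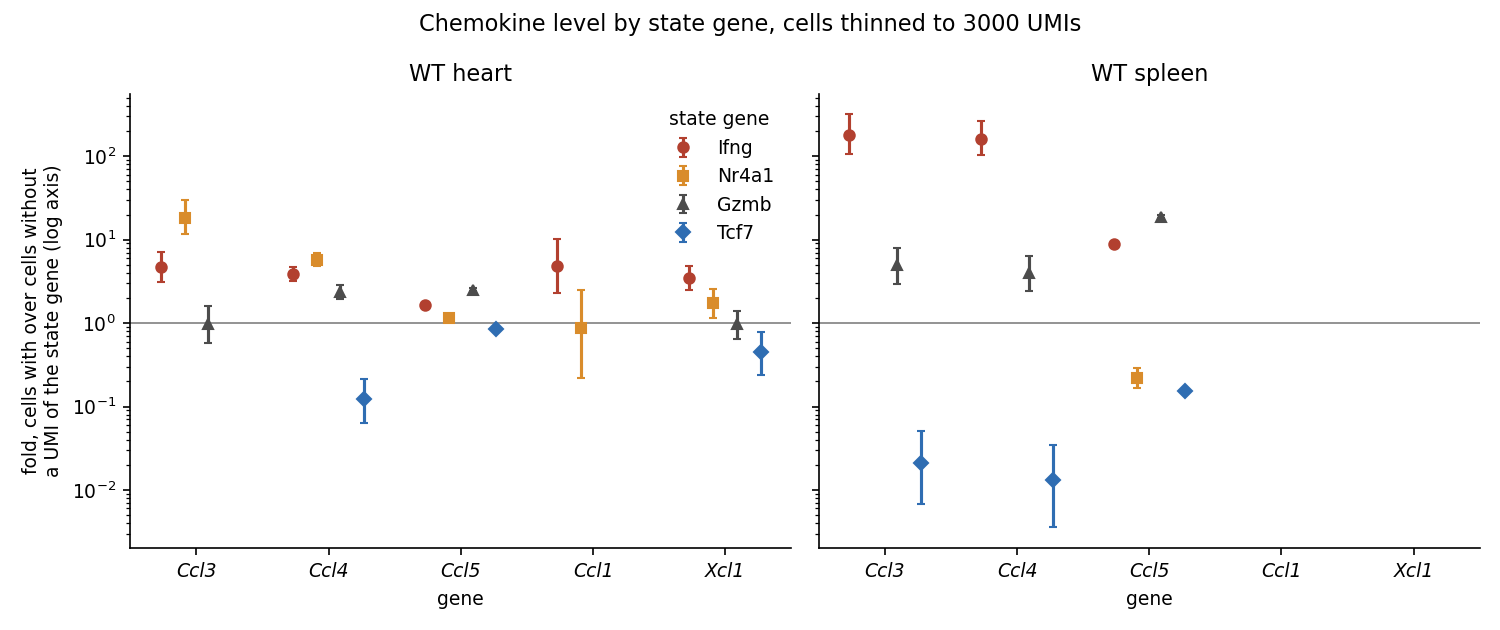
Fold in chemokine level between cells with and cells without a UMI of Ifng, Nr4a1, Gzmb or Tcf7 (log axis, all cells thinned to 3000 UMIs, exact 95% intervals of the ratio of counts), WT heart left and WT spleen right. Splits with 3 or fewer UMIs on a side are not drawn, which leaves no spleen point for Ccl1 or Xcl1; Ccl3 and Ccl4 stand highest for Nr4a1 in the heart, and Ccl5 for Gzmb in both.

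Ccl3 and Ccl4 were often in the same cell. After thinning, 12 heart cells held both, where the product of their shares gives 0.83, and so did 8 spleen cells against 0.030. The unthinned cells with both held 84.9% of Ccl3 UMIs in the heart and 95.3% in the spleen. Over all kept cells the Pearson correlation of their log-scaled counts was 0.52 in the heart and 0.84 in the spleen, a description of cells that share a library.

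Ccl1 was found beside Xcl1 in a few heart cells. Of the 40 heart cells with Ccl1, 13 also had Xcl1, against 4.08% of all heart cells, but cells with Ccl1 were deep, at a median of 14868.5 UMIs. After thinning, 11 cells held Ccl1 and 3 of these held Xcl1 too, where the product of shares gives 0.22. Ccl4 was in 1 of the 40, and after thinning in 0 of the 11, where the product gives 0.38, too few to show an absence. The richest Ccl1 cell had 51 UMIs and no Ccl3, Ccl4 or Ccl5, and the next had 47 UMIs beside 67 of Xcl1 and 12 of Ccl5. No cell in either library held all 5. In the thinned data 66.5% of heart cells and 89.9% of spleen cells held none of the 5, and 2.57% of heart cells and 0.183% of spleen cells held exactly 2.

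Among genes of at least 20 CPM, those most like Ccl5 in the spleen were Nkg7 (r of 0.55), Ly6c2 (0.40), S100a4 (0.40), Gzmb (0.38) and Ccr2 (0.37), over 6578 cells. In the heart no gene passed an r of 0.20 with Ccl5; the leading 5 were Plac8, Epsti1, Ly6c2, Lgals3 and H2-D1. Ccl4 in the heart was led by Ifng at 0.24, then Nr4a1, Fos, Nfkbid and Egr1, and Ccl3 after Ccl4 by Jun, Ifng, Egr1 and Nr4a1 at 0.17 or less. For Xcl1 the leading gene was Klrd1 at 0.10, followed by Nkg7, Nr4a2, Cd226 and Fasl. Correlations this low in sparse counts are given for completeness only.

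Cd3-only cells were also read by their own Ccl5 count. Heart cells with at least 10 Ccl5 UMIs (447) had 832.0 CPM of Nkg7, a cytotoxic granule gene, and 57.5 CPM of Tcf7, against 497.0 and 87.1 CPM in the 1999 heart cells without Ccl5. Spleen cells with at least 10 (249) had 984.8 CPM of Nkg7 and 221.8 CPM of Tcf7, against 87.3 and 468.7 CPM in the 5137 without. Klf2, an egress regulator, stood at 75.3 CPM in the Ccl5-rich heart cells and at 1042 CPM in the Ccl5-rich spleen cells, against 56.4 and 883.1 CPM in the heart and spleen cells without Ccl5. The share of Trbv19, the beta segment of the TEa receptor, among Trbv UMIs was 91.1% (86.1 to 94.7) in the Ccl5-rich heart cells and 90.0% (87.6 to 92.1) in heart cells without Ccl5. In the spleen it was 79.2% (68.0 to 87.8) in the Ccl5-rich cells and 78.5% (76.1 to 80.6) in those without. These bands were set after seeing the data.

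Most other chemokine ligands were barely counted. Of 32 listed, 31 were measured, 16 of these had no UMI in either library, and Ccl25 alone reached 10 CPM, with 8.89 CPM in the heart and 13.2 CPM in the spleen. Below that level, Cxcl2, a neutrophil attractant, had 270 UMIs (6.37 CPM) in the heart and 0 in the spleen. Cxcl10, an interferon-induced ligand of Cxcr3, had 7.85 CPM in the heart and 2.59 CPM in the spleen. In the heart these 3 stood near the 6.58 CPM of Ccl3. Which kept cells held them, T cells or the few with myeloid markers, was not examined, so they cannot be read as T cell products.

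Some receptors for these ligands were read in the same cells, each below 10 CPM in both libraries. Ccr8, the Ccl1 receptor, had 9.15 CPM in the heart and 0.089 CPM in the spleen. Ccr1, a receptor for Ccl3 and Ccl5, had 2.76 CPM in the heart and 0.16 CPM in the spleen. Xcr1, the Xcl1 receptor, had 7 UMIs in the heart and 2 in the spleen.

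Of 10 listed transcription factors tied to these genes or to their signals, 9 reached 10 CPM, 3 were at least 2-fold higher in the heart and 0 lower (9.16% and 8.5% of all genes compared), with a median log2 ratio of 0.19 against -0.11 over all genes compared. Eomes, the one below that level, had 0.31 CPM in the heart and 2.47 CPM in the spleen. Runx3, a regulator of cytotoxic T cell genes, had 229.3 CPM in the heart and 65.4 CPM in the spleen. The NF-kB members Rel and Nfkb1 had 110.0 and 217.7 CPM in the heart, against 46.6 and 98.9 CPM in the spleen. Tbx21, the Th1 regulator, had 23.4 CPM in the heart and 13.03 CPM in the spleen. Of 4 genes for chemokine storage or messenger decay, Srgn, the proteoglycan of secretory granules, had 1820 CPM in the heart and 736.3 CPM in the spleen, and Zfp36l2, encoding a binder of AU-rich messengers, had 398.3 CPM in the heart and 157.8 CPM in the spleen. Its relative Zfp36l1 was lower, at 51.8 CPM in the heart and 129.1 CPM in the spleen, and Zfp36 had 40.3 and 67.0 CPM.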

How the data were processed

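The deposited WT files are matrices of UMI counts without normalization, written by Cell Ranger 3.0.2 per the file headers; mm10, Seurat 4.0.0 and Cell Ranger 7.0.0 appear in the submitters' processing notes. Whether intronic reads were counted is not stated there, and the labels' protocol speaks of nuclei in suspension although cells were sorted. Counts of kept cells were summed per library and divided by the library's total to give CPM. Fold limits used log2 of CPM plus 1 and 2-fold, over genes of at least 10 CPM in either library. No doublet caller was run. With 1 library per tissue no p-value was computed, although planned comparisons across all genes are given by size.

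Clusters came from scanpy 1.11.5 and leidenalg 0.10.2: counts scaled to 10000 per cell, log-transformed, 2000 variable genes, 30 principal components, 15 neighbours and resolution 0.6, leaving out chemokine ligands, sex-linked genes, receptor segments and mitochondrial and ribosomal protein genes. Named besides the 5 chemokines are, for each with at least 50 positive cells, the 5 genes of at least 20 CPM with the highest Pearson r, and list genes past 2-fold, with a few others for their role, Cxcl2 and Cxcl10 among them, picked after their values were seen. The 5 genes, the lists and the cell classes were chosen with earlier results of these data known. Part of the receptor list is not reported here. The scripts were tested on simulated data. Gene positions are those of GENCODE M21, and promoter sequences those of RefSeq.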

Additional observations from a re-analysis of the deposited data

How the results depend on the processing

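No paired analysis was possible because each tissue has 1 library, and for the same reason no replicate could be left out. The heart over spleen log2 ratio kept its sign for Ccl4, Ccl5, Ccl1 and Xcl1 under each alternative run, within 1.63 to 3.03 for Ccl4, 0.27 to 1.69 for Ccl5, 1.92 to 5.51 for Ccl1 and 2.45 to 5.15 for Xcl1, and Ccl3 ran from -0.088 to 1.09. In the sentences that follow, ratios are log2 and were 0.67 for Ccl3, 2.78 for Ccl4, 0.65 for Ccl5, 2.45 for Ccl1 and 3.84 for Xcl1 as reported; the causes of the moves were not tested. Without cells holding an Hspa1a or Hspa1b UMI Ccl3 was -0.088 and Ccl4 1.75. With the mean of per-cell CPM Ccl3 was 0.12, Ccl4 1.63, Ccl5 0.78, Ccl1 2.11 and Xcl1 3.26. Thinning to 3000 UMIs gave Ccl4 2.26, Ccl5 0.81, Ccl1 1.92 and Xcl1 3.29. Stricter cell limits (2000 UMIs, 1000 genes, 5% mitochondrial) gave Ccl3 0.16, Ccl4 2.34 and Ccl5 0.27. Without cells above 3 times the median depth, where doublets would lie, Ccl3 was 0.33, Ccl4 1.93, Ccl5 0.78 and Xcl1 3.19. Without the richest 1% of cells Ccl4 was 3.03, Ccl5 1.69 and Xcl1 2.45 (Ccl3 0.49), where the spleen had no UMI of Ccl3, Ccl4 or Xcl1 left and the 1 CPM added sets their ratios, 3.03 and 2.45 being ends of the ranges above; Ccl1 then had no UMI left, since its 40 cells are that 1%. Totals without mitochondrial, ribosomal protein and Malat1 counts gave Ccl5 0.48, Ccl1 2.96 and Xcl1 4.13, and a pseudocount of 0.1 gave Ccl1 5.51 and Xcl1 5.15. Lyz2 at 0 with a Cd3 UMI gave Ccl5 0.74. Of the alternatives chosen after seeing the data, leaving out the richest cell gave Ccl3 1.09, Ccl5 0.73 and Ccl1 2.09, Cd3-only cells gave Ccl5 0.95, and a Cd3 UMI alone gave Ccl5 0.73.

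Genes at least 2-fold higher and lower in the heart numbered 638 and 592; 320 and 132 did so at a floor of 50 CPM, 619 and 1220 with the other totals, and 933 and 1122 with no floor. The share of heart cells with a UMI at 1000 UMIs per cell was 0.300% for Ccl3, 1.25% for Ccl4, 19.7% for Ccl5 and 1.20% for Xcl1, and unthinned 1.43%, 6.10%, 42.7% and 4.08%, with 1.001% for Ccl1. In the spleen it was 6.28% for Ccl5 and 0 for Xcl1 at 1000 UMIs, and 14.5% for Ccl5 unthinned. At a clustering resolution of 1 the highest cluster had 39.7 CPM of Ccl1 and 247.6 CPM of Ccl4 in the heart and 39.0 CPM of Ccl3, 60.6 CPM of Ccl4 and 1888 CPM of Ccl5 in the spleen. Of the 5 genes most like Ccl3, Ccl4 and Xcl1 in the heart, 2 to 4 were shared under other settings. At these depths a cell with no UMI of Ccl3, Ccl1 or Xcl1 cannot be read as not expressing it.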

Other observations

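Gzmk and Il10 encode granzyme K and a cytokine that restrains T cell responses. Spleen cells with either had higher summed levels of Ccl3, Ccl4 and Ccl5. The Ccl3 and Ccl4 levels rest on a few cells, as do all levels for Il10, which only 3 thinned spleen cells had. The 108 spleen cells with a Gzmk UMI after thinning had 7154 CPM of Ccl5, 373.5 CPM of Ccl4 and 293.2 CPM of Ccl3, against 277.7, 1.30 and 1.14 CPM in the other 6435. Ccl3 was found in 3.70% of the 108 and Ccl4 in 4.63%. The 3 spleen cells with Il10 held 90 thinned Ccl3 UMIs, where the 108 with Gzmk held 95. In the heart the 899 cells with Gzmk had 1027 CPM of Ccl5, 48.6 CPM of Ccl4 and 4.82 CPM of Ccl3, against 586.5, 36.6 and 9.25 CPM in the other 3063. The single spleen cell that led Ccl3 and Ccl4, with 101 and 133 UMIs, also had 454 Ccl5, 8 Il10, 3 Gzmk and 24 Nkg7 UMIs, 25 Cd3 UMIs and 0 Cd4 UMIs. The spleen cell that led Ccl5, with 1270 UMIs, had 5 Cd4, 2 Il10, 2 Gzmk and 45 Cd3 UMIs. Eomes, a regulator known from Gzmk-positive T cells, stood at 7.84 CPM in spleen Cd3-only cells with at least 10 Ccl5 UMIs and at 2.01 CPM in those without Ccl5. It was lowest, at 0.73 CPM, in the 582 with 1 to 9 Ccl5 UMIs, so it did not rise steadily with Ccl5.

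Heart cells with Il10 (239 after thinning) had 1432 CPM of Ccl5, against 638.6 CPM in the other 3723, and no UMI of Xcl1 or Ccl1. Only 11 of all thinned heart cells held Ccl1, too few to show an absence, and 80 held Xcl1. Cd69, a gene of early activation and tissue retention, divided the summed level of none of the 5 chemokines in the heart by an interval that leaves out a fold of 1. The share of cells differed more for some. Ccl4 was found in 5.05% of heart cells with Cd69 and 2.90% without, and Ccl3 in 0.971% and 0.477%. The shares were 31.3% and 29.6% for Ccl5, 2.04% and 2.01% for Xcl1, and 0.194% and 0.307% for Ccl1. Among Cd3-only heart cells Cd69 was the gene second most like Ccl4, at an r of 0.15. Itgae, which encodes a residency integrin chain, had a Ccl5 fold of 1.08 in the heart.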
